A study of Mus musculus with 4 samples.

Results

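The chromatin of 6 genes was followed across the T cells of a mouse colorectal tumor and of the cecum beside it. They are Pdcd1, Havcr2, Lag3 and Tigit, which encode inhibitory receptors, Entpd1, which encodes the ectonucleotidase CD39, and Tox, which encodes a transcription factor of chronically stimulated T cells. They were chosen by name from a list of genes tied to T cell exhaustion, with earlier results of these data known, and are 6 of the 21885 genes counted. T cells were sorted from tumors that had grown for 4 weeks from engineered mouse colon cancer organoids injected into the cecal wall, and from adjacent cecum free of tumor. The tumors come from one organoid line, and the genotype, age and number of the host mice behind each multiome library are not given in the sources used here. A multiome assay, which reads RNA and open chromatin from one nucleus, gave 1 ATAC library per tissue, with a cell type label for each nucleus that the authors had assigned from its RNA.

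Exhaustion is the state that T cells reach under lasting antigen stimulation. PD-1, the product of Pdcd1, recruits phosphatases that damp signals of the T cell receptor and CD28. TIM-3 (Havcr2), LAG-3 and TIGIT each bind their own ligands on other cells and also restrain T cells, and TOX is needed to hold the exhausted state in chromatin. The same receptors are not unique to exhausted cells: activated T cells carry PD-1 for a time, and regulatory T (Treg) cells of tissues often carry TIGIT and CD39. In ATAC, a transposase cuts where DNA is exposed, so fragment ends pile up at active promoters and enhancers. An open region shows that DNA was exposed, not that the gene was transcribed.

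The cecum library held 66466111 fragments and 7155 labelled cells, and the tumor library 96747563 fragments and 8466 labelled cells, in 17 labels. All results come from the labelled cells. A label held between 14 cells (PD1+ CD4 of the cecum) and 1841 cells, and the median fragment count of a cell ranged from 3516 to 9642.5 between labels. PD1+ CD4 cells of the cecum were 14, and their values are given but not called. Labels follow RNA, so the openness of Pdcd1 in the labels named for PD-1 is not independent of how they were named. Of the labelled barcodes, 84 occurred in both libraries, and leaving these cells out moved no result listed in the closing section past its limits. With 1 library per tissue no test was possible and no p-value is given. Each interval is an exact 95% interval for counting error alone and leaves out variation between animals. Tissue and library cannot be told apart.

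Some markers of CD8 and Treg cells were highest in labels of that name. Cd8a was highest in PD1+ CD8 cells (95.5 fragments per 1000000 fragments of the label, or FPM, in cecum and 89.96 FPM in tumor), Foxp3 in IL10+ Treg cells (102 and 79.2 FPM) and Ikzf2 in IL10- Treg cells (474 and 436 FPM). Cd8b1 was highest in CCR7+ CD8 cells of the cecum (135 FPM) and PD1+ CD8 cells of the tumor (102 FPM). Runx3 was highest in CD8aa cells of the tumor (331 FPM) but in Cytotoxic gdT cells of the cecum (359 FPM). Il2ra was highest outside the Treg labels, in Rorgt gdT cells (226 and 231 FPM). Per kb of gene window, the 8 T cell markers together lay at 3.51 to 5.25 FPM in the labels compared. The 6 B cell markers lay at 0.205 to 0.338 FPM per kb, the 7 myeloid markers at 0.520 to 0.861 and the 10 epithelial markers at 0.205 to 0.541, and none of these lists was at 0 in any of these labels. The part that other cell types have in the values below was not tested. The 3 CD8 markers were at 3.17 FPM per kb in PD1+ CD4 cells of the tumor, between the Treg labels (1.85 and 2.18) and PD1+ CD8 cells (4.30), and the 3 CD4 markers at 2.77 FPM per kb. Of the CD8 markers, Runx3 was at 294 FPM in PD1+ CD4 and 272 FPM in PD1+ CD8 cells of the tumor. Cd8a was at 22.3 and 89.96 FPM in these labels, and Cd8b1 at 25.4 and 102 FPM. IL10+ and IL10- Treg cells of the tumor were below PD1+ CD4 cells at all 3 genes. They had 5.87 and 4.31 FPM at Cd8a, 9.90 and 13.3 FPM at Cd8b1, and 219 and 182 FPM at Runx3.

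Promoter sequences are shown for the 3 receptors whose openness at the start either separated the labels or failed to. Pdcd1 lies on chromosome 1, 94038305 to 94052553 (GRCm38, minus strand), Havcr2 on chromosome 11, 46454931 to 46481255 (plus strand), and Tigit on chromosome 16, 43626137 to 43665125 (minus strand). The sequences are the 250 bases before the transcription start, 5′ to 3′, from RefSeq on GRCm38.p6. For Tigit the start listed there lies inside the gene span given, and so do the bases shown. Capitals mark matches to the letters of an NFAT (GGAAA), AP-1 (TGANTCA) or RUNX (TGTGGTT) site on either strand. These are descriptions of letters and show no binding.

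Pdcd1 (chr1:94052554-94052803): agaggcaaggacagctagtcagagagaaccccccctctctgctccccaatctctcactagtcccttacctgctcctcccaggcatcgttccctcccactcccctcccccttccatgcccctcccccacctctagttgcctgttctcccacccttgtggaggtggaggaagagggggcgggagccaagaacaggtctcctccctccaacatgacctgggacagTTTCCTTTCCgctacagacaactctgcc
Havcr2 (chr11:46454681-46454930): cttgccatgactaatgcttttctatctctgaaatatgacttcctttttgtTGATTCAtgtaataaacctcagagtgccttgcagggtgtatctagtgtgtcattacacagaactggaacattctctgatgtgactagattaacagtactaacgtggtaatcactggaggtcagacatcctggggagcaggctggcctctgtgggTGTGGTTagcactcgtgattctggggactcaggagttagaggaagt
Tigit (chr16:43664185-43664434): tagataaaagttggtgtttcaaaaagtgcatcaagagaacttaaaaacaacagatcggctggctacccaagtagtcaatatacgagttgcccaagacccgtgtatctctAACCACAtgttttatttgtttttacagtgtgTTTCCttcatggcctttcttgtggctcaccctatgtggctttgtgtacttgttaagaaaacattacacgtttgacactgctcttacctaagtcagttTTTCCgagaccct

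The Pdcd1 promoter held 2 NFAT matches side by side, 28 to 19 bases before the start, and 60.4% of its bases were G or C. The Havcr2 promoter (44.8% G or C) held 1 AP-1 and 1 RUNX match, and the Tigit promoter (40.0%) held 1 RUNX and 2 NFAT matches. The short NFAT letters are common: 55.6% of the 32851 promoters of this table held them, against 6.75% for AP-1 and 4.396% for RUNX. Of the 2 promoters listed for Entpd1, the first held none of the 7 motifs searched and the second held 2 NFAT matches. The other motifs were NR4A (AAAGGTCA), T-box (AGGTGTGA), TCF/LEF (CTTTGAA) and ETS (ACCGGAAG), found in 1.34%, 1.12%, 4.46% and 1.72% of promoters. Lag3 and Tox were not in the table.

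Each gene was measured over its span with 5 kb on each side, and a fragment counted once if either end lay there. Lag3 lies on chromosome 6, 124904359 to 124912434. Cd4 lies 16.1 kb away, outside the window. Ptms begins 1.24 kb from Lag3, so signal at that edge of the window may belong to another gene. Tox lies on chromosome 4, 6686353 to 6991557, and Entpd1 on chromosome 19, 40612366 to 40741602. The windows of Havcr2, Lag3, Tigit, Tox and Entpd1 overlap other genes (Gm12168 at Havcr2, Ptms and A230083G16Rik at Lag3, Zbtb20 and Mir568 at Tigit, Gm11802 at Tox, and Tctn3, Gm16027, Gm8783 and Gm41846 at Entpd1). The Pdcd1 window overlaps none. Per kb, Pdcd1 was the densest of the 6, at 5.86 FPM in cecum and 6.39 FPM in tumor, above 94.9% and 96.4% of all genes. Lag3 followed at 4.53 and 4.56 FPM per kb, then Tigit at 2.95 and 2.89, Havcr2 at 1.66 and 1.97, Entpd1 at 1.06 and 1.16, and Tox, in its long window, at 0.845 and 0.883. The median of all genes was 0.666 and 0.694 FPM per kb. Of the Pdcd1 window, 51.1% of the fragments in cecum and 43.9% in tumor lay in one region beyond its 3′ end, described below. The density of Pdcd1 and its place among genes include that region, and its place without it is not given.

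Over these windows, either IL10+ or IL10- Treg cells were first for 5 of the 6 genes in cecum, all but Pdcd1. In the tumor a Treg label was first for 3 of the 6, while Rorgt gdT cells led Pdcd1, PD1+ CD4 cells led Havcr2 and Tfh-like cells led Lag3. PD1+ CD8 cells led none. Within 1 kb of the start or gene ends, a Treg label was first for 1 gene in cecum and 0 in tumor. The share of all genes led by a Treg label is not given, so these counts have no background. Most neighbours in the order could not be separated: for Pdcd1 the interval of the ratio of neighbouring labels included 0 in 13 of 15 pairs in cecum and 15 of 16 in tumor. In the cecum that count was 15 of 15 for Havcr2, Lag3 and Entpd1, 13 of 15 for Tigit and 12 of 15 for Tox. So for Havcr2, Lag3 and Entpd1 the leading Treg label of the cecum was not separated from the label after it. The range from first to last label ran from 2.03-fold (Lag3, tumor) to 6.59-fold (Havcr2, tumor).

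**Figure D1:**
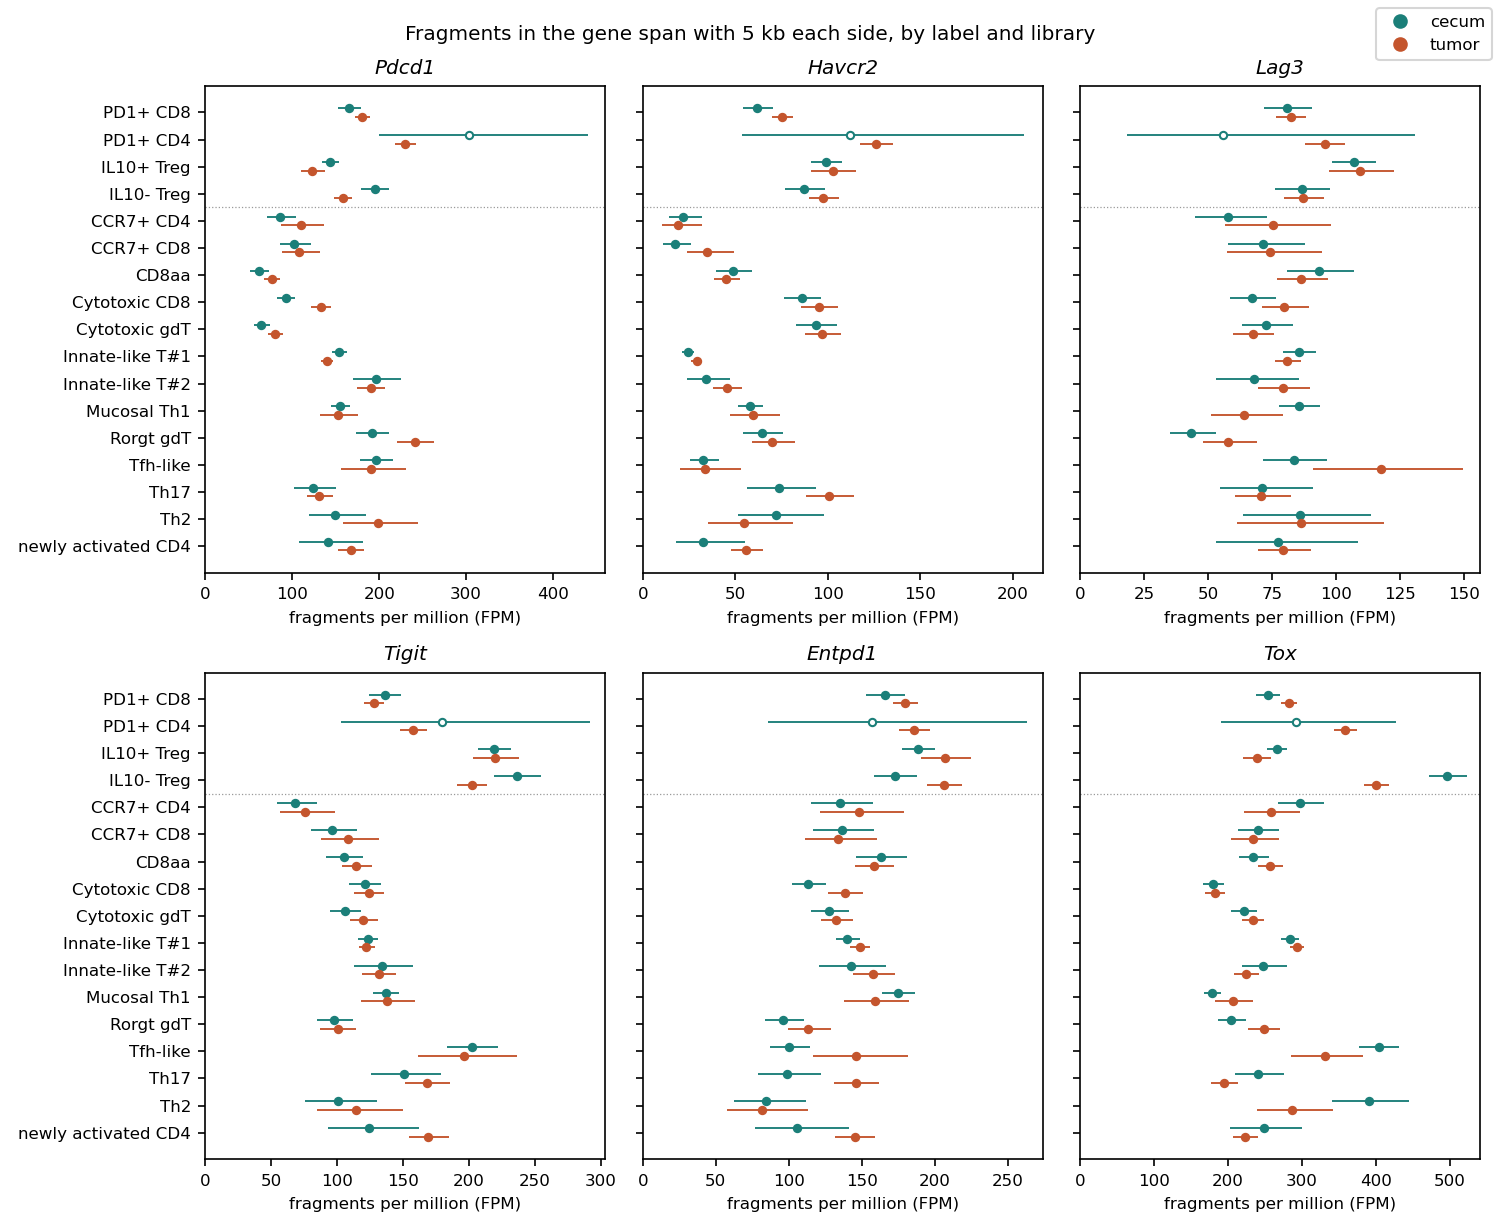
Fragments per 1000000 (FPM, horizontal axis) in the gene span with 5 kb each side, for 6 genes, by label (vertical axis) and library (cecum teal, tumor orange). Points are label sums, bars exact 95% Poisson intervals, the open point is the PD1+ CD4 label of 14 cecum cells, and labels above the dotted line are those compared with the rest. Pdcd1 runs from 61.3 to 196 FPM in the cecum without that label, and Tox is highest in IL10- Treg cells in both libraries.

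For Pdcd1, the lowest label of the cecum was CD8aa with 61.3 FPM, the median label had 147 FPM, and the highest was Tfh-like with 196 FPM. In the tumor, CD8aa was again lowest with 76.3 FPM, the median was 153 FPM, and Rorgt gdT cells were highest with 241 FPM. The leading labels were of different kinds: Tfh-like, Innate-like T#2 (196 FPM) and IL10- Treg cells (195 FPM) could not be told apart in the cecum, and Rorgt gdT and PD1+ CD4 cells (229.7 FPM) could not in the tumor. PD1+ CD8 cells stood at 165 FPM in cecum (interval 152 to 179) and 180.2 FPM in the tumor (172 to 189), rank 5 of 16 and rank 6 of 17 labels. The 14 PD1+ CD4 cells of the cecum gave 27 fragments, or 303 FPM (200 to 441).

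For Havcr2, the lowest label of each library was one of CCR7+ cells, which are naive or central memory T cells by that receptor. In the cecum it was CCR7+ CD8 cells with 17.3 FPM, and in the tumor CCR7+ CD4 cells with 19.2 FPM. CCR7+ CD8 cells of the tumor had 34.9 FPM. The medians were 59.95 and 59.4 FPM. The highest were IL10+ Treg cells in the cecum with 99.1 FPM and PD1+ CD4 cells in the tumor with 126 FPM. PD1+ CD8 cells had 61.9 and 75.4 FPM, below Cytotoxic CD8 cells with 85.9 and 95.1 FPM in both libraries.

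For Lag3, the range from first to last label was 2.46-fold in cecum and 2.03-fold in tumor. The medians were 79.05 and 79.9 FPM, the lowest label was Rorgt gdT in both libraries (43.5 and 57.9 FPM), and no neighbouring pair was separated. IL10+ Treg cells had 107 and 109.6 FPM. For Tigit, IL10- Treg (236 FPM) and IL10+ Treg cells (219 FPM) led the cecum, and the same labels led the tumor with 202 and 220.0 FPM. Tfh-like cells came next with 202 FPM in cecum and 196 FPM in tumor. In the tumor no neighbouring pair was separated (16 of 16 intervals included 0), so IL10- Treg and Tfh-like cells could not be told apart there. CCR7+ CD4 cells were lowest with 67.9 and 75.4 FPM, and the medians were 124 and 128 FPM.

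For Entpd1, whose product degrades extracellular ATP and so starts the path to adenosine, IL10+ Treg cells led with 189 FPM in cecum and 207 FPM in tumor, where IL10- Treg cells had 207 FPM as well. Th2 cells were lowest with 84.4 and 82.01 FPM, and the medians were 136 and 148 FPM. For Tox, IL10- Treg cells led clearly, with 497 FPM (472 to 522) in cecum and 400.5 FPM (384 to 417) in tumor, while IL10+ Treg cells had 266 and 239 FPM. The lowest were Mucosal Th1 cells in cecum (179 FPM) and Cytotoxic CD8 cells in the tumor (182 FPM), and the medians were 248 and 248 FPM.

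The first comparison set each label against the sum of the 13 labels that are neither PD1+ nor Treg, the rest. A value was called when it was past 1.5-fold, a limit of size and not a test. In PD1+ CD8 cells 0 of the 6 genes were called higher in either library, where 7.02% of all genes in cecum and 5.7% in tumor were. That count depends on the window, as given below for the start and for the region beyond the 3′ end of Pdcd1. Pdcd1 was at 165 against 134 FPM in cecum, a log2 ratio of 0.31 (0.18 to 0.43), and at 180.2 against 139 FPM in the tumor, 0.38 (0.30 to 0.46). Havcr2 (0.30 and 0.43) and Entpd1 (0.30 and 0.32) were of similar size with intervals above 0, and Lag3 (0.07 and 0.09) had intervals that included 0. The rest is a sum of fragments, so a label with many fragments, such as Innate-like T#1, weighs more in it. At Havcr2 the rest had 50.4 and 55.8 FPM, below the median labels with 59.95 and 59.4 FPM. PD1+ CD8 cells, with 61.9 and 75.4 FPM, were near that median in cecum. The median of the 6 genes was 0.22 and 0.25, beside a median over all genes tested of -0.01 and 0.00.

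PD1+ CD4 cells of the tumor were more open than the rest at all 6 genes, and 2 were called where 7.75% of all genes were. Havcr2 reached 126 against 55.8 FPM, a log2 ratio of 1.18 (1.06 to 1.30), higher than 97.6% of the genes tested. Pdcd1 reached 0.73 (0.64 to 0.81), above 94.3% of the genes. Tox was at 0.53 (0.46 to 0.59), Entpd1 at 0.37, Tigit at 0.31 and Lag3 at 0.30, and their intervals lay above 0. The median of the 6 was 0.45, and that of all genes -0.10. In the 14 cells of the cecum, the fragment counts were 27 for Pdcd1, 10 for Havcr2, 5 for Lag3, 16 for Tigit, 26 for Tox and 14 for Entpd1.

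IL10+ Treg cells were called for 2 of 6 genes in each library, Havcr2 and Tigit, against backgrounds of 4.01% and 5.63%. Havcr2 was at 0.98 (0.84 to 1.12) in cecum and 0.88 (0.69 to 1.06) in tumor, and Tigit at 0.83 (0.74 to 0.92) and 0.79 (0.66 to 0.91). Entpd1 (0.48 and 0.52) and Lag3 (0.47 and 0.50) came below the limit with intervals above 0. Pdcd1 was near the rest, 0.10 (-0.01 to 0.21) and -0.17 (-0.33 to -0.01), as was Tox, 0.11 (0.03 to 0.19) and -0.06 (-0.18 to 0.06).

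IL10- Treg cells were called for 3 of 6 genes in each library, Havcr2, Tigit and Tox, against backgrounds of 7.46% and 8.11%. Tox was at 497 against 246 FPM in cecum, a log2 ratio of 1.01 (0.93 to 1.09), and at 400.5 against 249 FPM in the tumor, 0.69 (0.62 to 0.75). Tigit was at 0.94 (0.82 to 1.05) and 0.66 (0.57 to 0.75), and Havcr2 at 0.79 (0.60 to 0.98) and 0.80 (0.67 to 0.94). Pdcd1 was at 0.54 (0.41 to 0.67) and 0.19 (0.09 to 0.29).

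**Figure D2:**
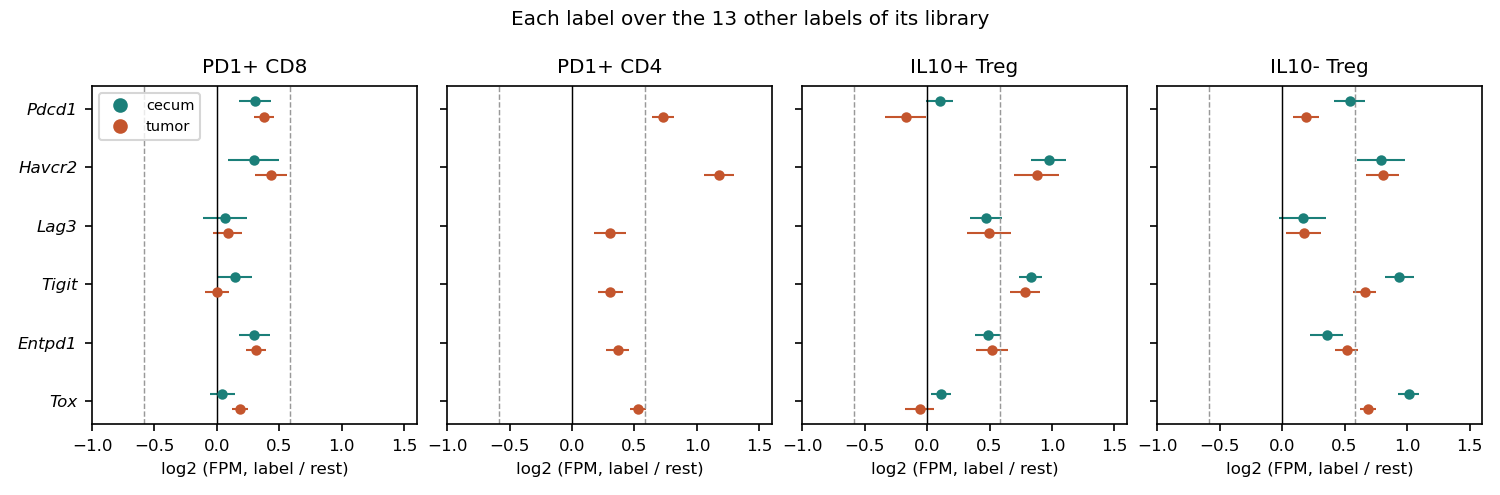
Log2 ratio of FPM in each of 4 labels over the 13 other labels of its library, for 6 genes (cecum teal, tumor orange). Bars are exact 95% intervals for counting error, dashed lines mark 1.5-fold, and PD1+ CD4 is drawn for the tumor alone. All 6 genes of PD1+ CD8 cells lie between the dashed lines, and Tox passes the line in IL10- Treg but not in IL10+ Treg cells.

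Openness near the transcription start gave another order than the whole window. Within 1 kb of the start, Pdcd1 had 21.1 and 23.6 FPM in PD1+ CD8 cells of cecum and tumor, 26.5 FPM in PD1+ CD4 cells of the tumor, and 1.39 and 2.02 FPM in CD8aa cells. Some labels of the rest were as high, with 24.6 and 22.8 FPM in Th2, 20.6 and 24.97 FPM in Tfh-like and 20.5 and 19.3 FPM in Mucosal Th1 cells. There the log2 ratio of PD1+ CD8 cells over the rest was 0.80 and 1.09, and those of PD1+ CD4 and IL10- Treg cells of the tumor were 1.26 and 1.07. The ratios of IL10- Treg cells of the cecum and of IL10+ Treg cells there are not given here. In the cecum, IL10- Treg cells had 11.7 against 6.11 FPM in the 500 bp that hold the start. In the next 500 bp downstream they had 2.67 against 4.78 FPM. So for the ratios given here, the promoter of Pdcd1 stood further from the rest than its window did. For Tigit the reverse held: the Treg ratios at the start were 0.22 and -0.01 for IL10+ and 0.19 and -0.19 for IL10- Treg cells, so the Treg excess at Tigit lay outside that window. For Tox, IL10- Treg cells stood at the level of the rest near the gene ends (-0.01 and -0.08), and the excess lay within the long gene.

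The start of Havcr2 followed the Treg and PD1+ CD4 values of its window but not the PD1+ CD8 value. It held 20.3 and 20.2 FPM in IL10+ Treg cells, 17.3 and 18.3 FPM in IL10- Treg cells and 23.3 FPM in PD1+ CD4 cells of the tumor. PD1+ CD8 cells had 7.22 and 11.1 FPM there, below Cytotoxic CD8 cells with 15.1 and 15.98 FPM, and their ratio over the rest was -0.49 and -0.08 at the start although 0.30 and 0.43 over the window. Part of the window value came from inside the gene: at chromosome 11, 46474001 to 46474500, they had 13.6 against 7.16 FPM in cecum (0.93, 0.45 to 1.38) and 14.3 against 6.97 FPM in tumor (1.04, 0.73 to 1.35). Near the starts of Entpd1 the ratios over the rest lay between -0.07 and 0.24 for all these labels. Tctn3 lies 0.042 kb from Entpd1, so signal near the first of these starts may belong to another gene.

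Within Tigit, the leading tile of 500 bp for IL10+ Treg cells lay at chromosome 16, 43661501 to 43662000, inside the gene span. It had 30.1 against 6.27 FPM in cecum, a log2 ratio of 2.26 (1.96 to 2.57), and 28.2 against 6.08 FPM in the tumor, 2.21 (1.82 to 2.59). There, PD1+ CD4 cells of the tumor had 20.7 FPM. The tiles named for Havcr2, Tigit, Tox and Entpd1 were picked because they led, so their sizes are descriptions and their intervals do not allow for the choice.

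The lead of IL10- Treg cells at Tox peaked inside the gene as well. At chromosome 4, 6881001 to 6881500, they had 12.0 against 1.80 FPM in cecum (2.73, 2.09 to 3.36) and 9.30 against 1.02 FPM in the tumor (3.19, 2.57 to 3.82). PD1+ CD8 cells led elsewhere in Tox, at 6844001 to 6844500, with 8.61 against 2.06 FPM in cecum and 10.1 against 2.04 FPM in tumor, although over the whole window they stood at 0.04 and 0.18. At Entpd1, IL10+ Treg cells led at chromosome 19, 40678501 to 40679000 (1.84 and 2.21), and at Havcr2 they led at chromosome 11, 46507001 to 46507500, beyond the gene (2.998 and 2.88). At this Havcr2 tile PD1+ CD4 cells of the tumor had 13.999 FPM, above both Treg values of 6.83 and 8.06 FPM.

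The second comparison set PD1+ CD8, PD1+ CD4 and IL10- Treg cells each against a label of like lineage. The pairs were fixed by hand, and no likeness between labels was measured. PD1+ CD8 cells had more at Pdcd1 than Cytotoxic CD8 cells, 165 against 92.7 FPM in cecum (0.84, 0.64 to 1.04) and 180.2 against 133 FPM in the tumor (0.44, 0.29 to 0.59). In the cecum Pdcd1 was the 1 of 6 genes called (background 4.87%), and in the tumor that gene was Tox (background 5.94%), at 0.63 (0.51 to 0.76) after 0.50 (0.35 to 0.65) in the cecum. Without cells of more than 3 times the median fragment count, 0 genes were called in the tumor, and no background is given for that setting. Havcr2 went the other way, at -0.47 (-0.73 to -0.22) and -0.33 (-0.52 to -0.15), with 3.53% and 6.96% of genes at or below it. Lag3 and Tigit differed little, with values of 0.04 to 0.26. So of the 2 receptors often read together as marks of exhaustion, one was more open and one less open in PD1+ CD8 than in Cytotoxic CD8 cells, in both libraries.

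Over Mucosal Th1 cells, PD1+ CD4 cells of the tumor were called for 3 of 6 genes (background 9.85%). Havcr2 was at 1.09 (0.75 to 1.44), Tox at 0.79 (0.61 to 0.98) and Pdcd1 at 0.59 (0.37 to 0.81). Within 1 kb of its gene ends, Tox turned to -0.23. Lag3 was just below the limit at 0.58 (0.25 to 0.93).

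Between the Treg labels, Tox was the 1 gene called in each library (backgrounds 8.32% and 8.92%), higher in IL10- Treg cells by 0.90 (0.80 to 1.01) in cecum and 0.75 (0.62 to 0.87) in tumor. Within 1 kb of the start or gene ends, 0 genes were called in either library, and Tox turned to -0.29 in the tumor. The backgrounds above do not apply to those smaller windows, for which none is given. Pdcd1 was also higher in IL10- Treg cells, by 0.44 (0.28 to 0.59) and 0.36 (0.18 to 0.55). Lag3 was lower in them, -0.30 (-0.52 to -0.09) and -0.33 (-0.54 to -0.12). Havcr2, Tigit and Entpd1 had intervals that included 0 in both libraries.

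The third comparison set tumor against cecum within each of 16 labels. The 6 genes differed little by tissue: medians over labels were 0.10 for Pdcd1, 0.14 for Havcr2, 0.03 for Lag3, 0.04 for Tigit, 0.13 for Entpd1 and -0.09 for Tox. Over 6 genes and 16 labels, 2 values were called higher in the tumor (background 3.28%), both for Havcr2, and 0 lower (background 2.09%). CCR7+ CD8 cells had 17.3 FPM in cecum and 34.9 FPM in tumor (1.01, 0.18 to 1.87, background 2.85%) and newly activated CD4 cells 32.8 and 55.7 FPM (0.76, -0.02 to 1.67, background 7.44%). The first rests on 22 and 31 fragments and the second on 14 and 167.

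Within PD1+ CD8 cells, Havcr2 was at 0.28 (0.06 to 0.51), Tox at 0.16 (0.05 to 0.27) and Pdcd1 at 0.12 (-0.01 to 0.26), with 0 of 6 called (background 1.96%). The largest tissue difference of Pdcd1 was in Cytotoxic CD8 cells, with 92.7 and 133 FPM (0.52, 0.31 to 0.73). Both Treg labels had less at Pdcd1 in the tumor, IL10+ by -0.22 (-0.41 to -0.04) and IL10- by -0.30 (-0.45 to -0.14), and less at Tox, by -0.15 (-0.29 to -0.02) and -0.31 (-0.40 to -0.22). Tox was also lower in the tumor, with intervals below 0, in Th2 (-0.44, -0.77 to -0.12), Th17 (-0.31, -0.55 to -0.06) and Tfh-like cells (-0.28, -0.52 to -0.05), which makes 5 of 16 labels, and 3 had intervals above 0. None of these passed the limit. The Treg decrease at Pdcd1 went with one region beyond the 3′ end of the gene (chromosome 1, 94034501 to 94036500), where tumor over cecum was -0.51 (-0.79 to -0.23) in IL10+ and -0.55 (-0.78 to -0.32) in IL10- Treg cells.

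**Figure D3:**
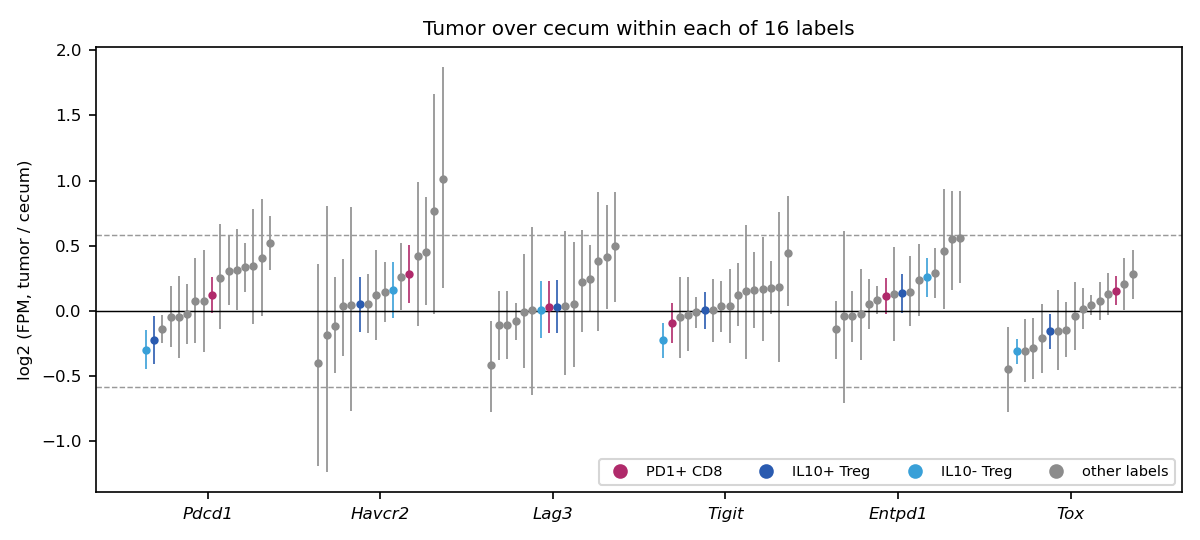
Log2 ratio of FPM in tumor over cecum for 6 genes, 1 point per label (16 labels, sorted within each gene), with exact 95% intervals for counting error. Dashed lines mark 1.5-fold. The 2 points above the line are Havcr2 in CCR7+ CD8 (1.01) and newly activated CD4 cells (0.76).

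The Pdcd1 locus was then cut into 230 tiles of 500 bp reaching 50 kb beyond each end of the gene. A region beyond the 3′ end, at chromosome 1, 94034501 to 94036500, 2.80 kb past the gene, held 51.1% of all fragments of the Pdcd1 window in cecum and 43.9% in tumor. It was open in all labels, at 43.6 to 99.9 FPM without the 14 PD1+ CD4 cells of the cecum, and PD1+ CD8 cells stood near the rest there (0.06 and 0.03). Without it, Pdcd1 over the rest was 0.54 and 0.65 in PD1+ CD8 cells, 1.13 in PD1+ CD4 cells of the tumor, 0.69 and 0.45 in IL10- Treg cells, and 0.09 and -0.02 in IL10+ Treg cells. So PD1+ CD8 cells of the tumor and IL10- Treg cells of the cecum, not called over the whole window, came past 1.5-fold. Some labels did differ at the region itself: IL10- Treg cells over the rest were at 0.39 (0.20 to 0.57) in cecum and -0.12 (-0.28 to 0.04) in tumor, and PD1+ CD8 over Cytotoxic CD8 cells at 0.61 (0.32 to 0.90) and 0.24 (0.02 to 0.47). Leaving the region out was chosen after the values were seen.

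Of the tiles with at least 20 fragments, PD1+ CD8 cells were called higher than the rest in 23 of 55 in cecum and 38 of 73 in tumor, where 19.5% and 18.3% of all tiles of the genome were. In both libraries at once it was 20 of 55 (background 7.39%). For PD1+ CD4 cells of the tumor it was 54 of 72 (23.1%). IL10- Treg cells had 31 of 61 in cecum (21.6%) and 29 of 68 in the tumor (20.1%), and IL10+ Treg cells 11 of 57 (15.7%) and 18 of 63 (26.6%). In both libraries at once, IL10- Treg cells had 16 of 58 (9.81%) and IL10+ Treg cells 6 of 55 (8.94%), so IL10+ Treg cells stayed near their backgrounds. Over Cytotoxic CD8 cells, PD1+ CD8 cells were called higher in 17 of 22 tiles in cecum (14.5%) and 16 of 37 in tumor (18.2%). Over Mucosal Th1 cells, PD1+ CD4 cells of the tumor were called higher in 19 of 34 (28.6%), and IL10- over IL10+ Treg cells in 12 of 22 (16%) and 10 of 23 (19.7%). Neighbouring tiles share fragments, so tiles are not independent.

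The same count within 50 kb of the other genes is given beside the same backgrounds for both libraries at once, 7.39% for PD1+ CD8, 8.94% for IL10+ Treg and 9.81% for IL10- Treg cells. At Tigit, IL10+ Treg cells were called higher than the rest in both libraries in 45 of 75 tiles and IL10- Treg cells in 40 of 73, while PD1+ CD8 cells were in 4 of 68. At Tox, IL10- Treg cells were called higher in both libraries in 43 of 113 tiles, IL10+ Treg cells in 17 of 109 and PD1+ CD8 cells in 11 of 105. Havcr2 had 16 of 46 for IL10+ and 13 of 41 for IL10- Treg cells, and Entpd1 had 20 of 63 and 17 of 61. The counts for PD1+ CD8 cells were 5 of 40 at Havcr2, 10 of 62 at Entpd1 and 3 of 66 at Lag3. At Lag3 the count for IL10+ Treg cells was 21 of 68, in a region that also holds Cd4. Compared with Cytotoxic CD8 cells, PD1+ CD8 cells were called higher in 0 of 18 tiles of Havcr2 in cecum (background 14.5%) and 0 of 28 in tumor (18.2%).

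**Figure D4:**
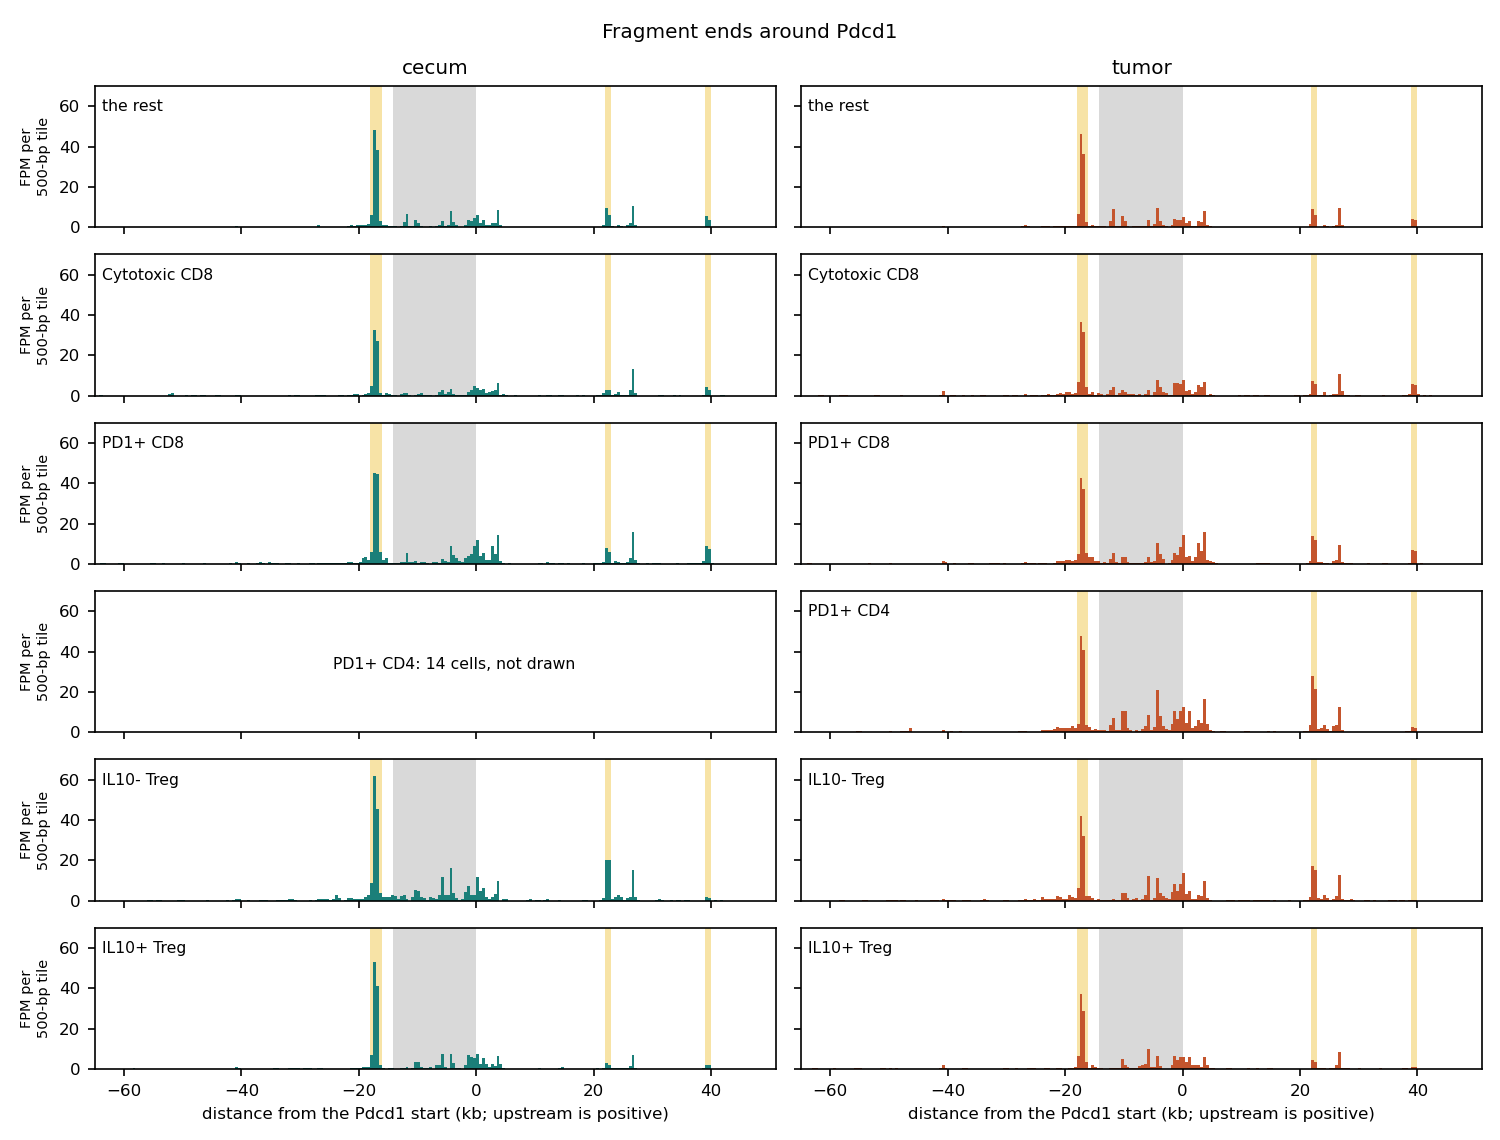
Fragment ends in tiles of 500 bp around Pdcd1 (FPM per tile, vertical axis) against distance from its transcription start (kb, upstream positive), for 5 labels and the rest, in cecum (left) and the tumor (right). Grey marks the gene span and yellow the regions 2.80 kb beyond its 3′ end and 22.4 and 39.4 kb upstream. The region at 22.4 kb is high in PD1+ CD4 cells of the tumor and in IL10- Treg cells and low in IL10+ Treg cells.

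At the tile of the start (94052501 to 94053000), PD1+ CD8 cells had 11.9 against 6.11 FPM in cecum (0.97, 0.45 to 1.45) and 14.5 against 5.33 FPM in the tumor (1.45, 1.12 to 1.77). PD1+ CD4 cells of the tumor had 12.7 FPM (1.25, 0.86 to 1.64), IL10- Treg cells 11.7 and 13.95 FPM (0.93 and 1.39), and IL10+ Treg cells 7.36 and 5.87 FPM, with intervals that included 0. Ranked by the smaller ratio of the 2 libraries, the first tile of PD1+ CD8 cells over the rest lay 2.70 kb upstream (94055001 to 94055500), with 8.88 against 2.25 FPM (1.98, 1.33 to 2.60) and 10.6 against 3.16 FPM (1.75, 1.35 to 2.14). In the tumor by itself other tiles were further from the rest, such as that 2.20 kb upstream with 3.61 against 0.862 FPM. At the tile 2.70 kb upstream, neither Treg label stood above the rest (-0.79 to 0.02). Another 2 tiles, 1.06 and 5.06 kb beyond the 3′ end, followed with ratios of 1.31 to 1.63. The leading and lowest tiles were picked by these same ratios, so their intervals do not allow for the choice. Of the 3 lowest tiles for PD1+ CD8 cells, that at 94040501 to 94041000, inside the gene, was nearly closed in Treg cells: IL10+ Treg cells had 1.23 and 0.733 FPM and IL10- Treg cells 0.9997 and 1.03 FPM, against 6.71 and 9.11 FPM in the rest.

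Another site inside the gene was open in Treg cells and in some other labels. At 94046501 to 94047000, 5.80 kb downstream of the start, IL10- Treg cells had 12.0 and 12.2 FPM and IL10+ Treg cells 7.71 and 9.90 FPM, against 3.39 and 3.499 FPM in the rest. PD1+ CD8 cells had 2.50 and 3.72 FPM, ratios of -0.44 and 0.09 with intervals that included 0. In the tumor, PD1+ CD4 cells had 8.79 FPM and Rorgt gdT cells 8.47 FPM, and Mucosal Th1 cells had 10.2 and 9.26 FPM in cecum and tumor. This tile was chosen after its values were seen.

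A region of 1 kb far upstream ran from 1.68 to 39.1 FPM between labels, without the 14 PD1+ CD4 cells of the cecum. It lies at chromosome 1, 94074501 to 94075500, 22.4 kb upstream of the start, overlaps no gene of the RefSeq table, and was joined from 2 tiles after their values were seen. The next gene on that side, Gm7891, lies 152 kb from Pdcd1. The highest value, 39.1 FPM, was that of PD1+ CD4 cells of the tumor, against 11.9 FPM in the rest (1.72, 1.49 to 1.95). IL10- Treg cells had 29.3 FPM in cecum and 23.3 FPM in tumor, and IL10+ Treg cells 3.503 and 5.87 FPM. So the 2 Treg labels lay on opposite sides of the rest, and IL10- exceeded IL10+ Treg cells by 3.07 (2.35 to 3.84) and 1.99 (1.24 to 2.83) on the log2 scale. Of the fragments of the rest, Innate-like T#1 cells gave 168 of 378 in cecum and 181 of 455 in tumor. Some other labels of the rest lay nearer to IL10+ Treg cells, such as Mucosal Th1 (4.74 and 6.18 FPM) and Cytotoxic gdT cells (5.65 and 4.53 FPM).

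Of the CD8 labels, PD1+ CD8 and Cytotoxic CD8 cells had more at this region in the tumor, while the intervals of CCR7+ CD8 (0.19, -2.14 to 2.41) and CD8aa cells (1.32, -0.14 to 3.09) included 0. PD1+ CD8 cells had 10.5 FPM there in cecum and 19.7 FPM in tumor (0.90, 0.39 to 1.44), and Cytotoxic CD8 cells 4.43 and 9.85 FPM (1.15, 0.25 to 2.13). Over the rest, PD1+ CD8 cells were at -0.18 (-0.70 to 0.30) in cecum, where the rest had 12.0 FPM, and at 0.73 (0.47 to 0.98) in tumor. PD1+ CD8 exceeded Cytotoxic CD8 cells by 1.25 (0.36 to 2.22) in cecum and 0.998 (0.48 to 1.55) in tumor. Without cells of more than 3 times the median fragment count, the cecum value was 2.43. Labels without PD1 in their name were open there too: Innate-like T#2 cells had 33.0 and 28.8 FPM and Rorgt gdT cells 30.1 and 24.0 FPM. Innate-like T#1 cells had 20.8 and 14.5 FPM, with less in the tumor (-0.52, -0.83 to -0.21). CCR7+ CD4 cells had 1.68 and 6.85 FPM and Th17 cells 5.74 and 1.71 FPM. The 4 PD1+ CD4 fragments found in 14 cells of the cecum match 44.9 FPM (12.2 to 115).

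A second upstream region, 39.4 kb from the start (94091501 to 94092500), had another pattern. It too was joined from 2 tiles after their values were seen, so its intervals do not allow for the choice. CCR7+ CD8 cells had 13.4 and 18.0 FPM, CCR7+ CD4 cells 10.1 and 19.2 FPM, and PD1+ CD8 cells 11.7 and 9.07 FPM, against 6.40 and 5.28 FPM in the rest. Mucosal Th1 cells were as high as PD1+ CD8 cells, with 12.5 and 9.26 FPM, and PD1+ CD4 cells of the tumor had 3.58 FPM. PD1+ CD8 over the rest was 0.87 (0.35 to 1.35) and 0.78 (0.40 to 1.16). Over Cytotoxic CD8 cells it was 1.13 (0.31 to 2.02) in cecum and 0.34 (-0.31 to 1.02) in tumor. IL10- Treg cells, high at the nearer region, were low here, with 1.999 and 0.517 FPM, as were IL10+ Treg cells with 2.98 and 1.83 FPM.

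**Figure D5:**
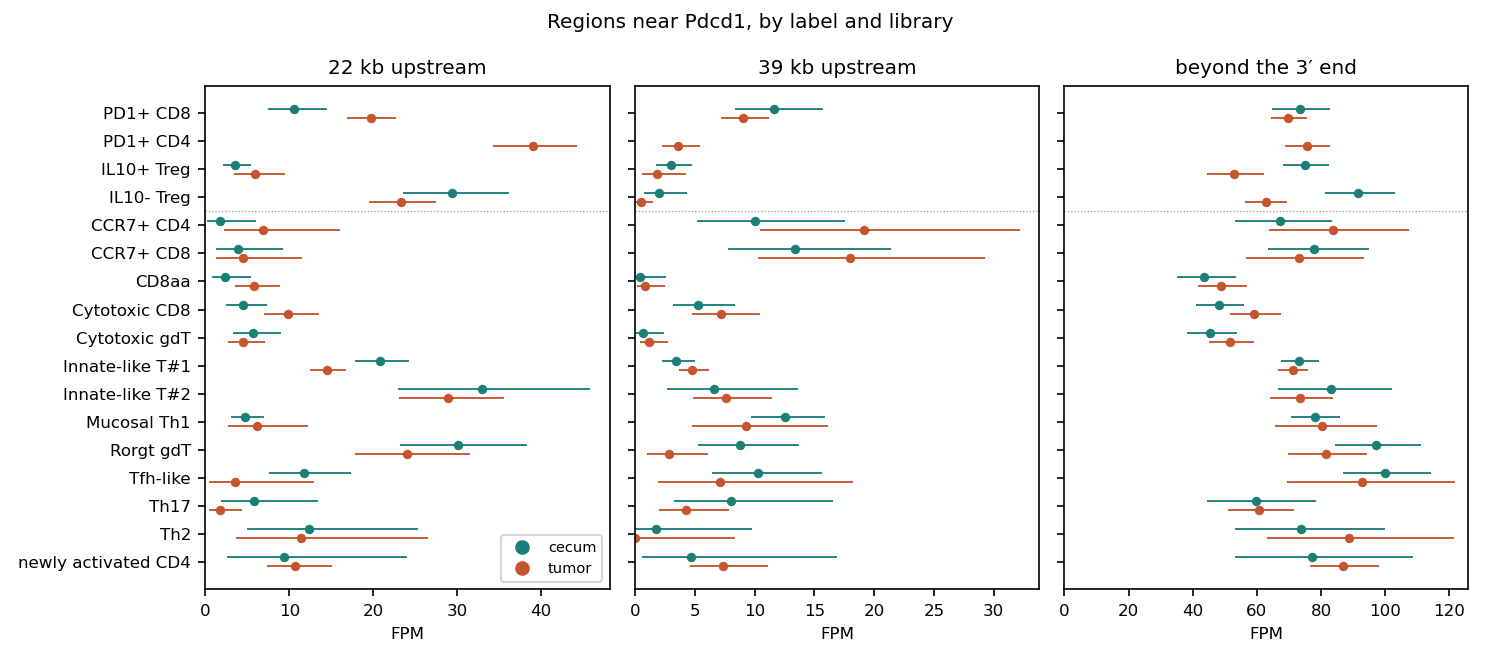
FPM in 3 regions near Pdcd1, 22.4 kb upstream, 39.4 kb upstream and 2.80 kb beyond the 3′ end, by label and library (cecum teal, tumor orange), with exact 95% Poisson intervals. The first runs from 1.68 FPM in CCR7+ CD4 cells of the cecum to 39.1 FPM in PD1+ CD4 cells of the tumor, and the third stays between 43.6 and 99.9 FPM, both without the 14 PD1+ CD4 cells of the cecum.

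An enhancer of Pdcd1 known from chronically stimulated mouse T cells lies upstream of the gene. For it, 3 tiles between 23 and 25 kb from the start were set out, centred at 23.7, 24.2 and 24.7 kb. The distance of 23 to 25 kb came from background knowledge and not from a file, so whether the tiles hold the enhancer was not checked. They were nearly closed in the rest, at 0.380 to 1.14 FPM. Those of PD1+ CD4 cells in the tumor had 2.12, 3.42 and 1.79 FPM, log2 ratios of 2.43, 1.71 and 1.71 with intervals above 0, from 13, 21 and 11 fragments. IL10- Treg cells had 1.67, 2.999 and 1.67 FPM in cecum, and 0.689, 2.93 and 1.55 FPM in tumor. PD1+ CD8 cells had 0.547 to 1.67 FPM. In the tumor, where they gave 5 to 7 fragments a tile, all 3 intervals of their ratio included 0. In the cecum only the first tile had an interval above 0 (2.13, 0.43 to 3.66, from 6 fragments). A further tile, centred 23.2 kb from the start, was not among these 3, so the intervals do not cover the whole stretch. At that tile PD1+ CD8 cells had 1.09 against 0.287 FPM in the rest in tumor. In cecum the order was reversed, with 0.278 against 0.633 FPM.

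Other genes of the same pathways were counted from lists of 6 roles, again by the 1.5-fold limit, here with 1 FPM added to both sides. The lists were written with earlier results of these data known. Among 14 other inhibitory receptors, PD1+ CD8 cells had 4 higher and 1 lower than the rest in cecum (backgrounds 5.33% and 4.04%) and 4 higher and 3 lower in the tumor (3.68% and 3.91%). Klrg1, a receptor of terminally differentiated cells, was at 0.84 and 1.08, Lair1, a collagen receptor, at 0.83 and 0.88, and Cd200r1, the receptor of CD200, at -1.04 and -1.03. Among 12 other factors of chronic stimulation, 1 and 2 were higher and 0 lower, with Eomes, a T-box factor of CD8 memory and exhaustion, at 1.25 and 1.14. Among 8 costimulatory receptors, 1 was higher in each library, Cd28 at 0.64 and 0.83, and 0 and 1 were lower. Of the 12 factors and receptors of progenitor and naive T cells, 0 were higher and 1 was lower in each library, Il7r, the receptor of the survival cytokine IL-7, at -1.13 and -0.71.

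In IL10+ Treg cells the 14 other inhibitory receptors were split. In the cecum 1 was higher and 7 lower (backgrounds 3.45% and 11.1%), and in the tumor 2 and 3 (4.79% and 12.1%). Ctla4, which removes B7 ligands from other cells, was at 1.18 and 1.17, and Cd160, Cd244a and Cd96, receptors of cytotoxic cells, were at -1.59, -1.42 and -0.98 in cecum and at -1.68, -1.62 and -1.10 in tumor. In IL10- Treg cells 4 were higher and 4 lower in cecum (6.41% and 7.52%) and 5 and 5 in the tumor (6.83% and 6.35%), with Klrg1 at 1.35 and 1.40. Lilrb4a, at 0.86 and 1.04, has a near-identical neighbour and its counts are uncertain. Of 8 costimulatory receptors, 3 or 4 were higher and 0 lower in each Treg label and library, among them Icos (1.0 and 1.23 in IL10+, 0.64 and 0.72 in IL10- Treg cells) and Tnfrsf4, which encodes OX40 (1.15 and 1.595, 1.31 and 1.57).

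Of 6 TOX and NR4A factors, 0 were called in PD1+ CD8 cells. Nr4a2, a nuclear receptor induced by T cell receptor signals, was lower in both Treg labels, at -2.24 and -2.29 in IL10+ and -0.84 and -0.61 in IL10- Treg cells. Tox2, a relative of Tox, was higher in IL10+ Treg cells, at 0.77 and 0.77, and in IL10- Treg cells it was at 0.86 in cecum, called higher, and at 0.57 in tumor, below the limit. In the tumor, PD1+ CD4 cells had 1 of these 6 factors higher, Tox2 at 0.68, and 3 of 12 other factors of chronic stimulation, Batf at 0.98, Bhlhe40 at 0.74 and Tbx21 at 0.70, with 0 lower in both lists (background 6.6% for higher). Their 14 other inhibitory receptors were split, with Ctla4 (0.72), Btla (1.19) and Lilrb4a (1.02) higher and Cd160 (-0.81), Cd244a (-1.11) and Lair1 (-0.73) lower. Of their 8 costimulatory receptors 4 were higher, Icos, Tnfrsf4, Cd40lg and Slamf1, and 0 lower. Among 12 factors and receptors of progenitor and naive T cells they had 1 higher and 4 lower (lower background 6.51%): Slamf6 was at 0.69, and Id3 at -1.27, Klf2 at -0.77, S1pr1 at -0.71 and Tcf7 at -0.60. Tcf7, which encodes TCF-1 of progenitor cells, was also lower in IL10+ (-0.97 and -0.96) and IL10- Treg cells (-0.92 and -0.88). Among 10 ligands and partners, at most 1 was higher in any of these labels. In IL10+ Treg cells 3 were lower in cecum (background 11.1%), Lgals9, Ceacam1 and Nectin3, and 1 in tumor (12.1%), and Lgals9, which encodes a TIM-3 ligand, was at -0.82 and -0.80.

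The genes most like each member over the 13 labels with at least 100 cells in both libraries were ranked by the smaller r of the libraries. These are descriptions over points that share libraries. Lag3 and Entpd1 were each other's nearest gene (r 0.80 and 0.80). Pdcd1 was nearest to Yes1 (0.87 and 0.86), Smad3 (0.85 and 0.84) and Gm10461 (0.89 and 0.80), the last of which overlaps Yes1. Havcr2 was nearest to Tmigd1 (0.95 and 0.93), Slc17a6 (0.93 and 0.91) and Atp10b (0.90 and 0.91). Tigit was nearest to Noxa1 (0.86 and 0.89), Tox2 (0.85 and 0.86) and Adap1 (0.87 and 0.85), and Tox to Smim10l2a (0.68 and 0.86), Ugt1a10 (0.76 and 0.67) and Car8 (0.80 and 0.67). Lag3 was further nearest to Zfr2 (0.77 and 0.82) and Ankrd55 (0.74 and 0.85), and Entpd1 to Il24 (0.79 and 0.77) and Dclk2 (0.75 and 0.84). Pdcd1 and Havcr2 themselves had r of 0.06 and 0.14.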

How the data were processed

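A single ATAC library of the multiome assay was used from each tissue. Its fragment lists were deposited as counts and, per the file headers, came from Cell Ranger ARC 2.0.0 run on mm10 by the authors, which collapses duplicate read pairs and adjusts ends for the transposase cut, so each line is 1 unique fragment with its raw read-pair count. The deposited annotation gives each cell a library and a label. Per the study's methods, labels came from clustering the RNA, and ATAC cells were kept by fragment number and start enrichment. The authors' treatment of doublets was not stated in the sources used. None were called here, and cells above 3 times the median fragment count were left out as an alternative. RNA and other assays of the study were not analysed here.

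Fragments of labelled cells (66.2% of the fragments for cecum, 64.3% for tumor), on the autosomes and sex chromosomes, were counted once per window and summed per label, and scaled per 1000000 fragments of the label (FPM). Gene spans were read from RefSeq annotation of GRCm38.p6, the assembly behind mm10, without exons, so whether a tile is exonic is not stated. Log2 ratios came from counts, with exact conditional intervals, and a count of 0 was set to 3. Levels have exact Poisson intervals. A call is a ratio past 1.5-fold. Genes needed 50 fragments and tiles 20 over both sides. The rule for named genes took all 6 members, up to 4 genes per list and label called in both libraries, the 3 most alike genes per member, and the 3 highest and 3 lowest Pdcd1 tiles for PD1+ CD8 cells. Start windows were 1 kb around the RefSeq start, or around both gene ends for Lag3 and Tox. The members, lists and tests were chosen with earlier results of these data known. Alternatives are in the closing section. The counter and ratios were tested on simulated fragments and counts. Python 3.11.15, numpy 2.4.6, pandas 2.3.3, scipy 1.17.1 and numba 0.67.0 were used. The full genotype of the organoids is not reported here.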

Additional observations from a re-analysis of the deposited data

Results flagged for a closer look

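Over the windows of the 6 genes, the libraries gave opposite signs for 3 comparisons between labels, and the differences were not tested. The PD1+ CD4 label, with 14 cells in the cecum, was left out of this screen here and at the regions. Pdcd1 in IL10+ Treg cells over the rest had a log2 ratio of 0.10 (-0.01 to 0.21) for cecum and -0.17 (-0.33 to -0.01) for tumor. Tox in the same comparison was 0.11 (0.03 to 0.19) and -0.06 (-0.18 to 0.06). Tigit in IL10- over IL10+ Treg cells was 0.11 (-0.03 to 0.24) and -0.12 (-0.27 to 0.02). All 6 of these values lie inside 1.5-fold, and 4 of the 6 intervals include 0. The same was seen for 3 comparisons at the regions near Pdcd1, again with no test of the difference. At the region 22.4 kb upstream, PD1+ CD8 cells over the rest were at -0.18 (-0.70 to 0.30) in cecum and 0.73 (0.47 to 0.98) in tumor. Beyond the 3′ end, IL10+ Treg cells over the rest were at 0.10 (-0.06 to 0.25) and -0.37 (-0.62 to -0.13), and IL10- Treg cells at 0.39 (0.20 to 0.57) and -0.12 (-0.28 to 0.04). Start windows and single tiles were not screened for a change of sign, and some of those given above had one.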

How the results depend on the processing

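Within 1 kb of the start or gene ends, 70 values moved past their limits, 85 did not, and 6 called values turned: Tigit in IL10+ Treg over the rest, tumor, to -0.0073, in IL10- Treg, tumor, to -0.19, Tox in IL10- Treg over the rest to -0.0125 (cecum) and -0.0779 (tumor), Tox in PD1+ CD4 over Mucosal Th1 to -0.23, and Tox in IL10- over IL10+ Treg, tumor, to -0.29. Genes called there were 1 and 1 for PD1+ CD8 over the rest (0 and 0 before), 1 for IL10+ Treg in the tumor, 0 for PD1+ CD8 over Cytotoxic CD8 in the tumor, 0 and 0 between the Treg labels, and 1 for tumor over cecum in PD1+ CD8. The share of all genes called in such windows is not given, so these counts have no background. Genes led by a Treg label were 1 (cecum) and 0 (tumor), again without a background. At 2-fold, called genes of the 6, with the share of all genes, were 1 for PD1+ CD4 (3.34%), 0 and 0 for IL10+ Treg (1.56% and 2.17%), and 1 and 0 for IL10- Treg (3.19% and 3.38%). In the second comparison they were 0 and 0 for PD1+ CD8 over Cytotoxic CD8 (1.21% and 1.7%) and 1 for PD1+ CD4 over Mucosal Th1 (4.72%). Between the Treg labels they were 0 and 0 (3.39% and 3.62%). PD1+ CD8 over Cytotoxic CD8 called 2 in the cecum under scaling to fragments near gene ends, and in the tumor 0 without cells above 3 times the median and 2 by the mean over cells. The share of all genes is not given for these settings either. Pdcd1 tiles called with a minimum of 50 fragments, with the share of all tiles of the genome at that setting, were 13 of 28 (12.7%) and 19 of 38 (12.1%) for PD1+ CD8, 26 of 36 (17.1%) for PD1+ CD4, 4 of 28 (12.1%) and 4 of 30 (14.5%) for IL10+ Treg, 13 of 29 (14.2%) and 11 of 32 (14.7%) for IL10- Treg, 3 of 5 (6.79%) and 7 of 19 (11.2%) for PD1+ CD8 over Cytotoxic CD8, 10 of 16 (19.4%) for PD1+ CD4 over Mucosal Th1, and 7 of 11 (8.02%) and 6 of 12 (10.8%) between the Treg labels. At 2-fold they were 10 of 55 (9.14%) and 19 of 73 (8.06%) for PD1+ CD8, 7 of 57 (8.22%) for IL10+ Treg in the cecum, 20 of 61 (10.7%) and 18 of 68 (11.6%) for IL10- Treg, 11 of 22 (5.64%) and 6 of 37 (8.86%) over Cytotoxic CD8, and 6 of 22 (7.64%) and 6 of 23 (10.4%) between the Treg labels. Without cells above 3 times the median they were 18 for IL10- Treg in the cecum, 6 and 10 over Cytotoxic CD8, and 7 between the Treg labels in the cecum. For this setting the number of tiles tested is not given and the share of all tiles was not computed. The gene span without flanks moved 18 of 119 values, the mean over cells 15 of 119, and, for the genes most alike, Spearman's rho moved 12 of 36 and labels with at least 50 cells 19 of 36, and these settings turned 0. The median over the labels of the rest, in place of their sum, moved 3 values past their limits, left 46 and turned 0. The cause of these shifts was not tested, beyond fewer tiles passing a higher minimum. Leaving out the barcodes found in both libraries, an alternative chosen after seeing the data, moved none of 131 values past its limits. No paired analysis was possible because each tissue has 1 library. Depth limits labels of few cells and single tiles most, and intervals cover counting error only.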
